A study of Mus musculus with 2208 samples.

Results

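The cells described here are microglia sorted from the hippocampus of 6 mice at 0 weeks, before the induction of p25. All wells of the 3 CKp25 mice and the 3 CK mice labelled 0 weeks were taken, the first well of each mouse was left out, and a cell was kept when at least 1000 genes reached an FPKM of 1 (a level scaled to transcript length and to the mapped fragments of the well). A gene is called found in a cell at that FPKM or more. The rule gave 528 cells from 576 wells, 257 from CKp25 mice and 271 from CK mice, in a series of 2208 wells from 25 mice. The CKp25 mice carry the inducible CK-p25 transgenes, which on induction make forebrain neurons produce p25, a shortened form of the protein that activates Cdk5, and lead to neurodegeneration. At 0 weeks p25 had not been induced. The CK mice are control littermates, and the labels give no further detail of their alleles. All 6 mice were 3 months old. The CK mice at 1, 2 and 6 weeks (9 mice, 729 cells) served as the most similar cells for comparison. Between them and the uninduced mice, week, age and plate cannot be told apart. Whole hippocampus was digested enzymatically, single cells bearing CD11b and CD45 were sorted into plates, and full-length cDNA was made by a modified Smart-seq2 protocol.

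Microglia are the resident macrophages of the brain. Signals through the colony-stimulating factor receptor Csf1r keep them alive, TGF-beta maintains their tissue-specific programme, and fine processes carrying purinergic and chemokine receptors survey the tissue. In the undisturbed brain they hold a large lysosomal compartment and make the first component of complement. They can turn on chemokines, interferon-response genes, antigen presentation or lipid-handling genes within hours to days of a stimulus.

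Of the 48 wells not kept, 42 held fewer than 1000 genes and 6 were first wells, 5 of which held over 8000 genes. Just outside the limit lay 4 wells of 900 to under 1000 genes and just inside it 8 cells of 1000 to under 1100 genes. The 3 CKp25 mice gave 89, 83 and 85 cells and the 3 CK mice 89, 95 and 87. The median number of genes per cell was 1979, 1954 and 2443 in the CKp25 mice and 2001, 2067 and 2237 in the CK mice, against 1537 to 2900 in the 9 CK mice of later weeks. A single cell of CKp25 mouse 2 held 11886 genes, and the next highest held 4882. Of all values in the 528 cells 90.8% were 0. The read depth behind single values is unknown.

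Microglia markers were found throughout. Every one of the 528 cells carried at least 6 of 10 microglia markers, and 468 carried all 10. The 20 cells with border-associated macrophage markers described below also held a median of 10, so this count does not set them apart. Cst3 (the protease inhibitor cystatin C) was found in all cells, Cx3cr1 (the fractalkine receptor) in 99.8% ± 0.469 and P2ry12 (an ADP receptor that directs processes toward injury) in 99.1% ± 0.464 (SD, n = 6 mice, as for every ± below unless SE is named). Of the sorting markers, the CD11b gene Itgam was found in 88.2% ± 3.98 of cells and the CD45 gene Ptprc in 74.9% ± 7.26, and both in 350 cells. Lists of markers of other blood and brain cells were low. Their median share of cells ran from 0.1% for T and natural killer cells to 2.96% for border-associated macrophages and 3.02% for oligodendrocytes. Apart from the border macrophage list, their most widespread members reached 12.8% for endothelium, 12.6% for oligodendrocytes, 10.2% for neurons, 8.15% for B cells and 6.11% for T and natural killer cells. S100a8 and S100a9 of neutrophils, Cd3e, Cd3g and Nkg7 of T and natural killer cells, Pax5 of B cells, Chil3 of monocytes and Cldn5 of endothelium were found in 0 of 528 cells, which allows a share of up to 0.568% of cells at FPKM 1 or more, by counting error alone. Since low transcripts can drop out, this does not limit the share of cells that express a gene. In 26 cells at least 3 markers of another cell type were found. They were 20 cells with markers of border-associated macrophages, the macrophages of meninges and vessels, 4 with those of neurons, 3 of oligodendrocytes, 2 of erythroid cells and 1 each of astrocytes and T or natural killer cells, a cell being counted under every type it reached.

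A handful of genes made up a large part of the measured expression. FPKM is corrected for transcript length but is not a count of molecules, so the order of genes by level describes these libraries. Cst3 was highest at 29020 ± 7437 FPKM, with mouse means of 35200, 18160 and 38110 in CKp25 mice and 31700, 27080 and 23860 in CK mice. It alone took 8.23% ± 1.02 of the summed FPKM of a mouse (taken without ribosomal RNA and small RNA genes, here and below), the first 10 genes took 21.4% ± 1.32, the first 100 took 41.6% ± 0.942 and the first 1000 took 70.5% ± 0.571. Bhlhe41, which encodes a basic helix-loop-helix transcriptional repressor, came next at 14660 ± 5270 FPKM. Its mouse means were 13790, 24140 and 9788 in CKp25 mice and 9825, 15740 and 14680 in CK mice, so that Bhlhe41 stood above Cst3 in CKp25 mouse 2 and below it in the other 5 mice. The lysosomal proteases Ctsd (cathepsin D, 6499 ± 1355) and Ctss (cathepsin S, 4078 ± 1105) were also among the highest. All 3 chains of complement C1q were high, with C1qb at 3926 ± 854, C1qa at 2423 ± 506 and C1qc at 2342 ± 522 FPKM. Other genes of high level were Cd81 (a tetraspanin, 2603 ± 513), the signalling adapters Fcer1g (2279 ± 545) and Tyrobp (1778 ± 390), Actb (beta-actin, 2153 ± 283), P2ry12 (2105 ± 418), B2m (the light chain of MHC class I, 1979 ± 644) and Csf1r (1828 ± 317). From Fcer1g down to Tyrobp neighbours in this order differ by less than 1 SD.

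**Figure D1:**
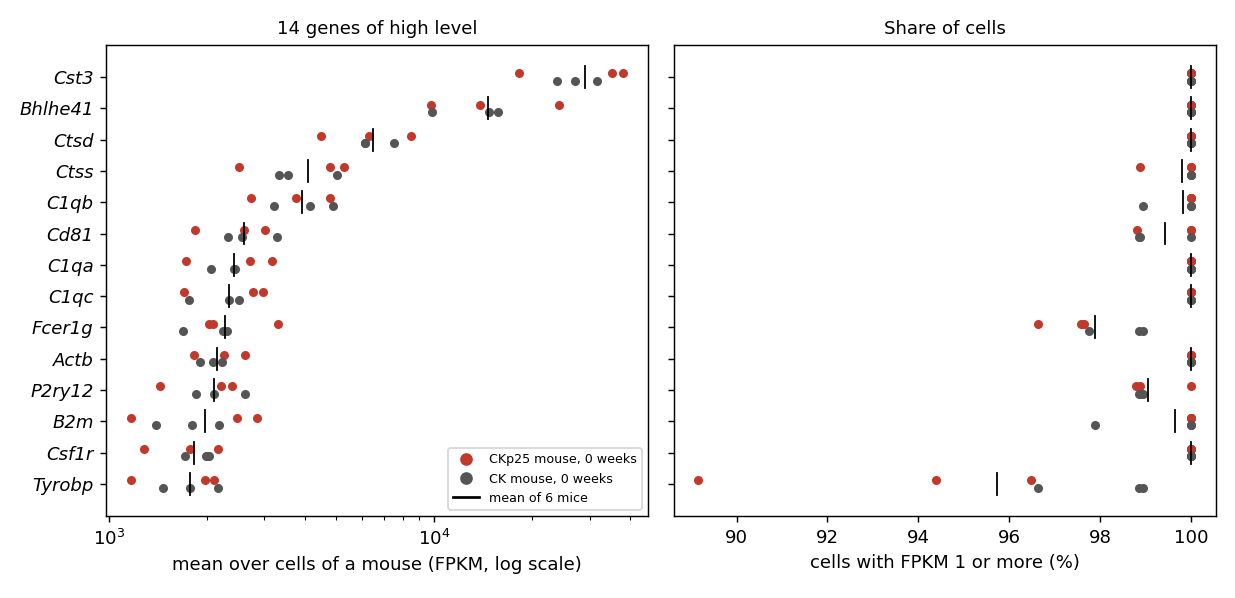
Mean FPKM over the cells of each mouse (left, log scale) and percentage of its cells at FPKM 1 or more (right) for 14 genes of high level; each point is 1 of 3 CKp25 or 3 CK mice at 0 weeks and the bar is the mean of the 6 mice. Cst3 spans 18160 to 38110 FPKM, and Tyrobp, at 95.7% on average, is the gene of these found in the fewest cells.

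Ribosomal RNA and small RNA genes were set apart, because their values depend on how much unprocessed or short RNA a library takes up. Rn45s, the ribosomal RNA precursor, averaged 33510 FPKM and was the highest value in 253 of the 528 cells. Mir6236 followed at 1730 and Mir686 at 1518 FPKM.

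Few genes were found in nearly every cell. Of 22751 genes other than ribosomal RNA and small RNA genes, 4797 were found in at least 10% of the cells of every mouse, 590 in at least 50% and 74 in at least 95%, while 3952 were found in no cell. In all 528 cells 16 genes were found, among them Cst3, Bhlhe41, Ctsd, C1qa, C1qc, Actb, Csf1r, the asparaginyl endopeptidase Lgmn, the transmembrane protein Itm2b, Tmem119 (a surface protein of resident microglia), Laptm5 (a lysosomal transmembrane protein) and Dpysl2 (a microtubule-associated protein). The median gene was found in 1.71% of cells.

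The 23 genes of the homeostatic list, those known to mark microglia of the undisturbed brain, stood far above this level. Their median share was 97.4% of cells, and 12 were found in at least 95% of the cells of every mouse and 22 in at least 50%. Together they took 14.9% ± 1.26 of the summed FPKM, of which Cst3, a member of the list, alone took 8.23%. P2ry12 had mouse means of 2211, 1438 and 2395 FPKM in CKp25 mice and 2627, 2099 and 1859 in CK mice. The groups overlap, with the lowest value again in CKp25 mouse 2. Tmem119 averaged 1557 ± 233, Olfml3 (an extracellular matrix adapter) 1493 ± 188, Gpr34 (a lysophosphatidylserine receptor) 1417 ± 318, Cx3cr1 1173 ± 154 and Siglech (a sialic acid-binding lectin) 656 ± 112 FPKM. The least widespread were Crybb1, a crystallin expressed in young microglia, in 55.2% ± 7.53 of cells, and Ltc4s, the synthase of leukotriene C4, in 67.3% ± 4.30.

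Transcription factors of the microglial lineage were much lower than the markers they are known to govern, apart from Bhlhe41. Of 20 listed factors, 11 were found in at least 50% of the cells of every mouse. Irf8, required for microglial development, averaged 172 ± 14 FPKM in 85.7% ± 6.71 of cells. Spi1, which encodes the master regulator PU.1, averaged 154 ± 15 FPKM in 68.3% ± 5.52 of cells. Sall1, which holds cells in the microglial state, averaged 60.7 ± 13.5 FPKM in 83.0% ± 5.87, with mouse shares of 82.0%, 88.0% and 89.4% in CKp25 mice and 76.4%, 86.3% and 75.9% in CK mice. Mef2a and Mef2c were each found in over 80% of cells. Batf3, a factor of dendritic cells, was found in 8.66% ± 3.27.

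On the receiving side of survival signals, Csf1r and Tgfbr1 (the TGF-beta type I receptor, 205 ± 40.5 FPKM) were found in 100% and 98.3% ± 1.19 of cells and Tgfbr2 in 86.9% ± 5.60. Their ligands were found in fewer of the same cells. Il34, a ligand of Csf1r made by neurons, was found in 0 of 528 cells and Csf1 in 5.73% ± 3.52, while Tgfb1 was found in 15.8% ± 2.08. Of 15 measured genes of this pathway list 6 were found in at least 50% of the cells of every mouse. Among 10 purinergic genes, P2ry12, P2ry13 (94.1% ± 3.44 of cells), P2ry6 (the receptor for UDP, 65.8% ± 6.44), P2rx7 (an ATP-gated channel, 60.7% ± 4.63) and Entpd1 (CD39, which degrades extracellular ATP, 93.9% ± 2.39) passed that limit. Nt5e (CD73, which makes adenosine from AMP) and the adenosine receptor Adora2a were found in 0.397% and 0.201% of cells. Of 20 innate receptor genes, Cd33 (an inhibitory sialic acid-binding lectin, 95.5% ± 5.49) and Cd14 (a lipopolysaccharide co-receptor, 61.4% ± 4.38) were found in over 50% of the cells of every mouse. The 8 listed Toll-like receptors ranged from 55.2% ± 5.58 for Tlr13 down to 16.6% ± 4.89 for Tlr6, with Tlr4, the receptor for lipopolysaccharide, at 36.0% ± 6.61. The formyl peptide receptor Fpr2 was found in 0 of 528 cells.

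The degradative apparatus was found widely. Of 28 lysosomal genes 19 were found in at least 50% of the cells of every mouse and 8 in at least 95%, and the list took 7.33% ± 0.6248 of the summed FPKM. Below Ctsd and Ctss came Lgmn at 1719 ± 244, Laptm5 at 1143 ± 245, Ctsz at 904 ± 240, Grn (progranulin) at 634 ± 103 and Psap (prosaposin) at 529 ± 35.7 FPKM. Psap had the smallest relative spread of these between mice. In the complement list the pattern was divided. C1qa, C1qb and C1qc were found in at least 95% of the cells of every mouse, and the complement receptor chains Itgam and Itgb2 in 88.2% ± 3.98 and 84.9% ± 2.82. The next components of the cascade were found in few cells, with C4b in 2.07% ± 0.815, C2 in 0.762% ± 0.591 and C3 in 0.392% ± 0.961 of cells. Of 7 Fc receptor genes, 4 reached 50% in every mouse, and Fcgr3 (406.7 ± 105.0 FPKM, 92.8% ± 4.12 of cells) led those that bind antibody. Of 15 genes of MHC class I presentation 5 reached 50% in every mouse. B2m was found in 99.7% ± 0.860 of cells, the heavy chains H2-D1 in 59.0% ± 3.96 and H2-K1 in 56.2% ± 9.12, and the peptide transporter Tap1 in 17.7% ± 7.38.

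Genes of inflammatory output were found in a minority of cells, as an average over mice. Of 20 chemokines and cytokines 0 were found in at least 50% of the cells of every mouse and 6 in at least 10%. Ccl3, a chemokine that attracts monocytes and T cells, was found in 22.5%, 43.4% and 27.1% of cells in CKp25 mice. In CK mice it was found in 17.98%, 18.95% and 18.39% of cells. Its level on the log2 scale was 2.69 in CKp25 mice and 1.54 in CK mice, and the difference of 1.15 ± 0.533 (SE) did not pass the test (limma, adjusted p = 1.00), which 0.0% of 9162 genes passed in either direction. Ccl4, its neighbour on the chromosome and close relative, averaged 989, 351 and 89.9 FPKM in CKp25 mice and 242, 122 and 60.2 in CK mice. The first of these means rests largely on 1 cell at 61560 FPKM, and the shares of cells, 25.8%, 42.2% and 12.9% in CKp25 mice and 21.35%, 20% and 8.05% in CK mice, overlap. Il1a was found in 24.9% ± 10.5 of cells, Tnf in 9.07% ± 5.91 and Il1b in 2.64% ± 1.68. The interferon-induced Cxcl10 was found in 0.201% and Il10 in 0.375% of cells. In the NF-kappaB list, the inhibitor Nfkbia, itself a target of the pathway, led with 142 ± 58.3 FPKM in 46.3% ± 9.61 of cells, against 32.9% ± 5.56 of cells for the subunit Rela. Of these 15 genes 0 reached 50% and 11 reached 10% of the cells of every mouse.

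Interferon-response genes were found in still fewer cells, at a median of 3.16% against 9.86% for the chemokines and cytokines. Of 30 genes of the type I interferon response 20 were under 10% of cells in every mouse and 5 reached 10% in every mouse, and the whole list took 0.0537% ± 0.0106 of the summed FPKM. Trim30a (35.6% ± 6.72 of cells) and Bst2 (tetherin, 15.6% ± 3.00) were among the 5, whereas Isg15 was found in 5.73% ± 3.16 and Ifit1 in 0.954% ± 1.12. Of 8 genes of the MHC class II list 0 reached 50% and 2 reached 10% in every mouse. Among the classical class II genes, H2-Ab1 was found in 7.31% ± 6.01, the invariant chain gene Cd74 in 4.80% ± 2.47, H2-Eb1 in 2.28% ± 1.96 and H2-Aa in 2.05% ± 2.16 of cells. CK mouse 1 stood apart in their level. Cd74 had mouse means of 13.01, 98.5 and 19.3 FPKM in CKp25 mice and 567, 113 and 5.79 in CK mice. H2-Ab1 had means of 10.98, 75.8 and 5.49 in CKp25 mice and 628, 116 and 1.51 in CK mice. The means of Cd74 rest on few cells, since at most 4.49% of the cells of a mouse reached 100 FPKM. Its highest single cell held 7913 FPKM in CKp25 mouse 2, 18340 in CK mouse 1 and 10590 in CK mouse 2. The class II loading factors H2-DMa and H2-DMb1 were wider spread, at 37.7% ± 16.8 and 30.9% ± 12.2 of cells, and the co-stimulatory gene Cd86 was found in 53.0% ± 9.81.

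The list of phagocytic and lipid-handling genes, many of which rise in microglia around plaques and dying neurons, split into a part found widely and a part found in few cells. Ctsd, Tyrobp, Trem2 (a lipid-sensing receptor, 825 ± 153 FPKM, 96.7% ± 2.15 of cells), Ctsb, Cd9 and Mertk (a receptor for apoptotic cells, 93.6% ± 2.71) were found in most cells, and 10 of 27 genes in at least 50% of the cells of every mouse. In contrast 11 of 27 were under 10% in every mouse. Spp1 (osteopontin) was found in 0.392% ± 0.608, Gpnmb in 0.593% ± 0.988, Itgax (CD11c) in 1.53% ± 1.16, Cst7 in 3.65% ± 2.34, Axl in 4.75% ± 1.36 and Clec7a in 5.55% ± 3.21 of cells. Apoe, the lipid carrier, lay between these, in 51.0% ± 8.32 of cells. Its mean was 873, 342 and 1667 FPKM in CKp25 mice and 2242, 541 and 905 in CK mice, far above its median over cells, which lay between 0 and 64.5 FPKM in the 6 mice.

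Housekeeping lists filled in the picture. All 47 listed ribosomal protein genes were found in at least 10% and 30 in at least 50% of the cells of every mouse, and they took 4.72% ± 0.495 of the summed FPKM. Of 33 nuclear genes of the respiratory chain 25 reached 10%, and 1, Atp5b, reached 50%. Of 16 glycolysis genes 3 reached 50%, among them the homeostatic gene Slc2a5, a fructose transporter of microglia, in 86.0% ± 7.60 of cells, while the glucose transporter Slc2a1 was found in 5.84% ± 2.26. Of 20 actin cytoskeleton genes 11 reached 50%. Cholesterol synthesis genes had a median share of 4.17% of cells, with 11 of 15 under 10% in every mouse and Fdft1 highest at 23.4%. Genes of proliferation were also found in few cells, apart from some such as Tyms (48.1%) and Ccnd1 (27.3%). Of 22 DNA replication genes 13, and of 22 mitosis genes 15, were under 10% in every mouse, with Mki67 in 2.11% ± 1.19 and Top2a in 1.72% ± 0.991 of cells. Transcripts of the Y chromosome were found in all 6 mice, Eif2s3y in 19.1% to 36.5% of cells, and Xist in 0% to 7.37%.

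How much single genes varied from cell to cell within a mouse was measured as the SD over cells of log2(FPKM + 1), minus the SD that genes of the same mean have in that mouse. This excess was computed for the 4797 genes found in at least 10% of the cells of every mouse. It was above 0 in all 6 mice for 1715 genes (35.8% of those measured) and below 0 in all 6 for 1558 (32.5%). The most variable were short genes, mostly of ribosomal proteins. Gm20594 had the largest excess at 1.62, then Rpl41 at 1.52, Gm12191 at 1.49 and Rps12 at 1.48. Several of the 20 most variable, such as Gm12191, Rpl34-ps1 and Rps27rt, are pseudogene or near-identical copies of other genes, so their values and those of their parents are uncertain. The others included Tmem176b, an intracellular channel protein of myeloid cells, at 1.27. Least variable were Kcnq1ot1, a long antisense RNA of an imprinted domain, at -2.52, and Dst, Prtg, Nfia and Map3k1 between -2.21 and -2.01. Kcnq1ot1 averaged 27.1 ± 4.68 FPKM and was found in all 528 cells. The annotated transcripts of the 10 least variable genes ran from 1693 to 93090 bases.

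By list, 41 of 47 ribosomal protein genes were above the trend in all 6 mice and 0 below it, against 35.8% above among all genes, with a median excess of 0.978. Rpl41 shows what this means. Its lower quartile over cells was 0 in 4 of the 6 mice and its median between 275 and 642 FPKM, and it was found in 75.3%, 65.1% and 74.1% of cells in CKp25 mice and 80.9%, 70.5% and 72.4% in CK mice. Of 25 respiratory chain genes measured 24 were above the trend, with a median excess of 0.548, led by Cox4i1 at 0.989. Of 16 immediate early genes 10 were above and 3 below (median 0.347). Transcription factors leaned the other way, with 2 of 18 above and 12 below, and homeostatic genes were mixed, with 7 of 23 above and 10 below. Tgfbr1 at -1.07, Csf1r at -0.69 and Cx3cr1 at -0.67 were among the steadier ones. For the few genes beyond a mean of about 10 on the log2 scale, Cst3 and Bhlhe41 included, the trend rests on few neighbours.

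**Figure D2:**
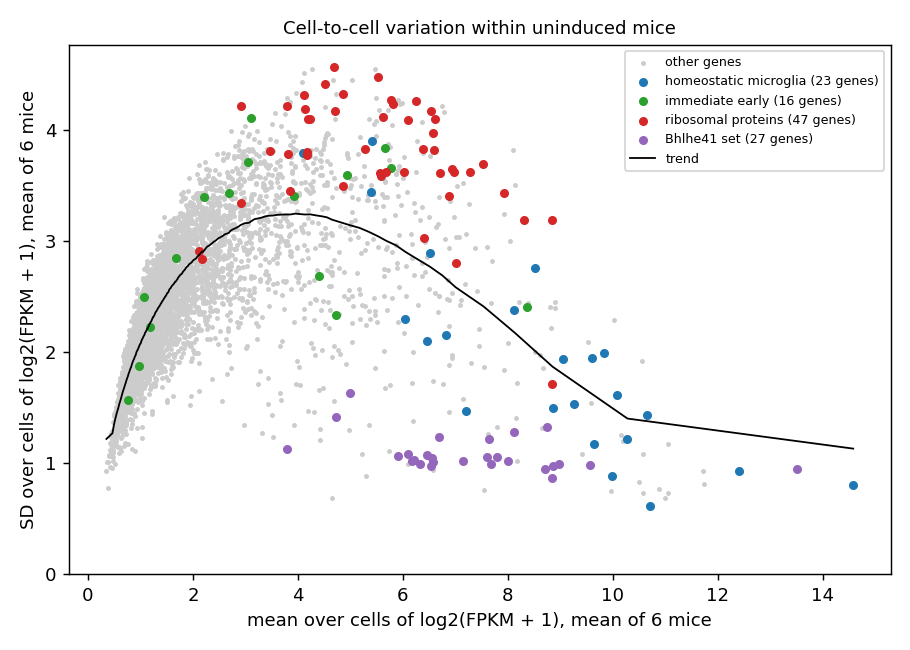
SD over cells of log2(FPKM + 1) against the mean of log2(FPKM + 1), both as means of 6 uninduced mice, for 4797 genes, with the trend over genes as a line and 4 gene groups in colour. The ribosomal protein genes lie mostly above the line, and the 26 partners of Bhlhe41 lie along the lower edge at an SD near 1.

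Transcript length went with this measure. Over the 4782 genes with an annotated transcript (GENCODE M21), Spearman's rho between length and excess was -0.662, a description across genes that share their libraries. The 20 most variable genes had a median length of 835 bases and the 10 least variable 8537, against 3730 for all. By class of annotated length, the median excess of ribosomal protein genes was 1.16 against 0.619 for other genes under 700 bases. It was 0.999 against 0.508 from 700 to under 1000 and 1.01 against 0.326 from 1000 to under 2000 bases. From 2000 to under 4000 bases it was 0.855 against 0.0867. The part of length in these and the other differences was not tested.

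Bhlhe41 stood out by the company it kept. Co-variation was measured within each mouse as the Pearson correlation over its cells of log2(FPKM + 1), after regression on the number of genes per cell, for 2433 genes found in at least 20% of the cells of every mouse. The mean over all 2958528 pairs was 0.00185, and 383 pairs (0.0129%) exceeded 0.2 in all 6 mice. With 26 genes Bhlhe41 exceeded 0.2 in all 6 mice, and 245 of the 383 pairs lay within this set of 27, which was drawn up after the values were seen. The mean correlation over pairs of the set was 0.538, and 0.428 to 0.794 in single mice. The closest partners were 5031426D15Rik, an unnamed transcript, at 0.963, Trip4 (a transcriptional coactivator) at 0.930, Rapgef4 (a cyclic AMP-activated exchange factor) at 0.922, Gas7 (a cytoskeletal adapter) at 0.917, Tmem87a at 0.913 and Gid8 (a ubiquitin ligase subunit) at 0.887. The weakest of the 26, Thg1l, reached 0.397, and the strongest gene outside the set, which missed the limit in at least 1 mouse, was Dst at 0.537.

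The set joins genes of widely different known roles. Pax6, a factor of neural progenitors and eye development, averaged 125.5 ± 48.2 FPKM and was found in at least 98.9% of the cells of every mouse, and so was Slitrk2, a synaptic adhesion gene of neurons, at 101.1 ± 29.3 FPKM. Mc1r, the melanocortin receptor of pigment cells, was found in at least 89.4%. Of the 27 members 24 were among the 74 genes found in at least 95% of the cells of every mouse, and 25 were below the trend of cell-to-cell variation in all 6 mice. They were also the genes that differed most between mice, taking 8 of the first 10 places by share of variance between mice. The median of that share was 24.4% in the set and 0.162% over all genes. Ptchd1 (34.0%), Gas7 (34.0%), Exoc8 (32.3%) and Prtg (32.0%) led. Outside the set, Scoc, which takes part in autophagy, came next at 30.8%. It was found in 86.5%, 72.3% and 75.3% of cells in CKp25 mice and in 60.7%, 16.8% and 83.9% in CK mice, so the low mouse was CK mouse 2.

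The level of the set went down as the number of genes in a cell went up. Within mice its mean log2 level correlated with the log2 number of genes per cell at -0.733 ± 0.117, from -0.880 to -0.616, and at -0.766 in the 9 CK mice of later weeks. Its share of the summed FPKM was 5.37%, 13.7% and 3.47% in CKp25 mice and 3.78%, 7.41% and 6.62% in CK mice, 6.72% ± 3.74 in all, against 2.25% to 17.6% in the later CK mice. By wells, the median share of the set was 35.1% in 9 wells of 100 to under 500 genes, 36.0% in 17 wells of 500 to under 1000 genes, 15.9% in 57 of 1000 to under 1500, 8.38% in 172 of 1500 to under 2000, 3.58% in 265 of 2000 to under 3000 and 1.75% in 33 of 3000 to under 5000. It was 0.0988% in the 5 first wells of over 8000 genes. The classes leave out wells of under 100 genes, the cell of 11886 genes (0.224%) and the first well of 4851 genes (0.410%). The median level of Bhlhe41 over the same classes of wells was 52670, 49830, 30940, 17430, 9520, 5059 and 104 FPKM. Cst3 did not share this order, with median shares of 2.99%, 5.26%, 7.31%, 6.62%, 8.30%, 8.72% and 15.95%. P2ry12 was at a median of 0 FPKM in the wells of under 500 genes, and Bhlhe41 was highest there. A run of 14 T in the annotated transcript was held by 15 of 26 set members with a transcript in the annotation (57.7%), against 20.1% of 4782 genes. A run of 14 A was held by 10 of the 26, against 544 of the 4782. Of the 10 least variable genes, 8 held the run of T and 6 that of A. The median length of the set was 4241 against 3730 bases. The part of library yield or of such runs in the level of these genes was not tested, and the level of Bhlhe41 given above is a measure from libraries in which it moved with the number of genes found.

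**Figure D3:**
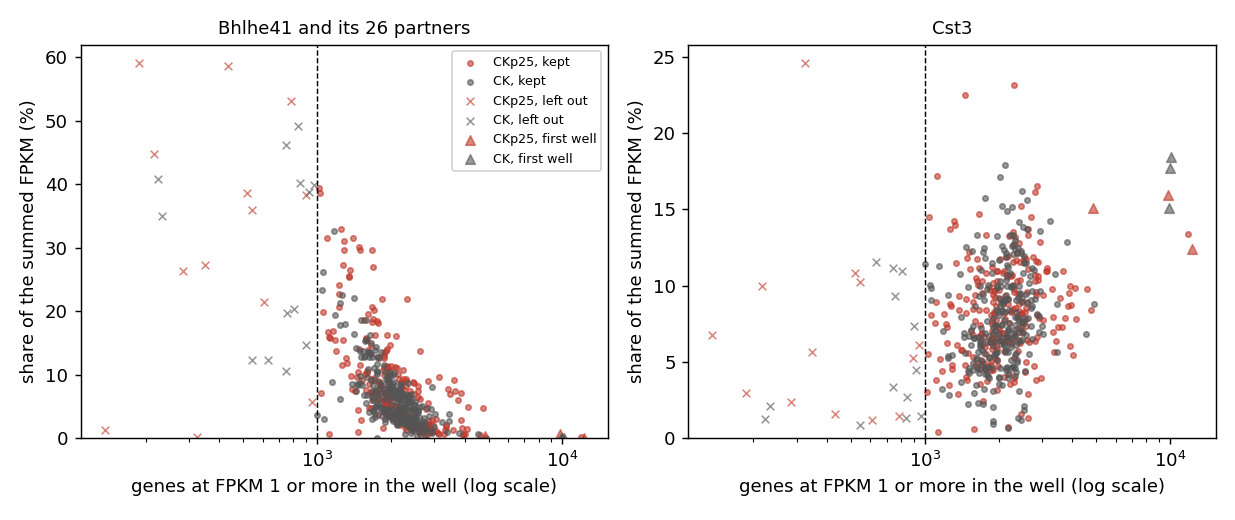
Percentage of the summed FPKM taken by Bhlhe41 and its 26 partners (left) and by Cst3 (right) in each well of the 6 uninduced mice, against the number of genes at FPKM 1 or more in the well (log scale); circles are kept cells, crosses wells left out and triangles first wells, and the dashed line is the limit of 1000 genes. The median share of the set is 36.0% in wells of 500 to under 1000 genes and 1.75% in those of 3000 to under 5000, while that of Cst3 is 5.26% and 8.72%.

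Besides the pairs with both genes in the Bhlhe41 set, 138 pairs exceeded 0.2 in all 6 mice. Of these 27 joined 2 homeostatic genes, 21 joined 2 immediate early genes, 9 and 11 held 1 gene of these lists, and 70 held none. Among the 70 were pairs of a set member with another gene, such as Ptchd1 with Paip1 (0.593). Others joined genes outside both lists and the set, such as Gm17821 with A630089N07Rik (0.695) and with A130077B15Rik (0.691). Some of the strongest cannot be read as co-regulation of separate genes. Rps27 and Rps27rt (0.786) are near-identical copies, the annotated genes Hvcn1 and Tctn1 (0.761) overlap, and so their reads may have been split between them.

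Immediate early genes, which cells switch on within minutes of a stimulus and which tissue dissociation is known to induce, varied together most strongly of the lists with more than 2 genes in this measure. The 10 listed genes found widely enough had a mean correlation of 0.308 ± 0.0504, with 0.240 to 0.374 in single mice, and 21 of their 45 pairs exceeded 0.2 in all 6 mice. Fos, a subunit of the AP-1 factor, correlated at 0.643 ± 0.0790 with Egr1, a zinc finger factor, at 0.570 ± 0.155 with Dusp1, a phosphatase of MAP kinases, at 0.534 ± 0.0838 with Jun, its AP-1 partner, at 0.527 ± 0.0453 with Zfp36, which destabilises cytokine transcripts, and at 0.489 ± 0.0688 with Btg2, an anti-proliferative gene. Fos averaged 204, 221 and 189 FPKM in CKp25 mice and 225, 418 and 218 in CK mice, and was found in 34.8%, 44.6% and 32.9% of cells in CKp25 mice and in 27.0%, 50.5% and 41.4% in CK mice. Egr1 was found in 21.4%, 68.7% and 31.8% of cells in CKp25 mice and 23.6%, 56.8% and 34.5% in CK mice, so that mouse 2 of each genotype was highest. Jun was also highest in mouse 2 of each genotype, with 65.2%, 90.4% and 62.4% of cells in CKp25 mice and 66.3%, 88.4% and 67.8% in CK mice. Of the 26 genes of the whole list, 6 reached 50% and 16 reached 10% of the cells of every mouse, and the list took 0.735% ± 0.173 of the summed FPKM. The part of the dissociation in these values was not tested.

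The promoters of 3 of these genes are shown because their transcripts varied together and because they hold letters that known regulators of the response bind. The motifs were TGACG, the short site of CREB and ATF factors, its full palindrome TGACGTCA, which contains it, and the CArG box of serum response factor, searched on both strands from 250 bases before to 50 bases after the annotated start in the RefSeq promoters of build GRCm38.p6. Capitals mark TGACG or its palindrome in the first 2 and the CArG box in the third. The regions are chr12:85473640-85473939 on the plus strand for Fos, chr17:26508423-26508722 on the minus strand for Dusp1 and chr7:28379179-28379478 on the minus strand for Zfp36.
Fos promoter: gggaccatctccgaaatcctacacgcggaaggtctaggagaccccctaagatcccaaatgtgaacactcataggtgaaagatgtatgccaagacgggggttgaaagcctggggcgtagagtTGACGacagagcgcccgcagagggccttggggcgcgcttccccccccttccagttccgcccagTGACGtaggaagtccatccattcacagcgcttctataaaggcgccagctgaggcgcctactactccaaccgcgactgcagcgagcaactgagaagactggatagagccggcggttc
Dusp1 promoter: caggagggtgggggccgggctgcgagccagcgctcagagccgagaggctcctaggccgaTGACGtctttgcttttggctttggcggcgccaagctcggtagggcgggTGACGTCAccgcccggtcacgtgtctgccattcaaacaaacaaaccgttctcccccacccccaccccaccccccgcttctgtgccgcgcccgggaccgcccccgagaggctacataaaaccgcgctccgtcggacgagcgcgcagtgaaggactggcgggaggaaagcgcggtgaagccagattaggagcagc
Zfp36 promoter: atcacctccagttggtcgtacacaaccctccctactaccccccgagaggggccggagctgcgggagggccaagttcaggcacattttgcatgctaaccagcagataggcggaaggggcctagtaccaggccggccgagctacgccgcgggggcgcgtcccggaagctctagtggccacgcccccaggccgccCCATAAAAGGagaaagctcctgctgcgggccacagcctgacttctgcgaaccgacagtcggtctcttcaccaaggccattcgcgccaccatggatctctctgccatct
In Fos the 2 matches start 129 and 66 bases before the annotated start. In Dusp1 they start 191, 143 and 140 bases before it, the last 2 being the overlapping ends of the palindrome, and the box of Zfp36 starts 58 bases before it. Of the 10 genes 8 had a promoter in the tables, and TGACG was in 4 of them (Fos, Junb, Dusp1 and Btg2), against 23.1% of 27025 genes with a promoter on chromosomes other than 18, which was not used. The palindrome was in 2 (Dusp1 and Btg2), against 2.03%, and the CArG box in 1 (Zfp36), against 1.81%. A match describes the letters and not a bound site, and its absence from this window says nothing of the factor.

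Homeostatic genes also varied together, with a mean correlation of 0.191 ± 0.0347 over 253 pairs and 0.155 to 0.243 in single mice. P2ry12 correlated at 0.563 ± 0.191 with Sparc (a matrix protein), at 0.533 ± 0.144 with Selplg (the P-selectin ligand), at 0.530 ± 0.129 with Tmem119 and at 0.516 ± 0.113 with Cx3cr1. Without the 26 cells that carry markers of another type, the list's mean was 0.0836 and these 4 values were 0.219, 0.269, 0.350 and 0.335. By Spearman, with all cells, they were 0.169, 0.211, 0.235 and 0.314 and the list's mean was 0.112. Cst3 went most with Ctss, at 0.596 ± 0.0339 with all cells and 0.556 without the 26. With P2ry12 it correlated at 0.365, at 0.12 without them and at 0.187 by Spearman. Fos and Egr1 gave 0.636 without these cells and 0.596 by Spearman.

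The promoter of Cst3, the gene of highest level, is shown with GAGGAA, a core of sites bound by PU.1, in capitals (chr2:148875463-148875762, minus strand, GRCm38.p6).
Cst3 promoter: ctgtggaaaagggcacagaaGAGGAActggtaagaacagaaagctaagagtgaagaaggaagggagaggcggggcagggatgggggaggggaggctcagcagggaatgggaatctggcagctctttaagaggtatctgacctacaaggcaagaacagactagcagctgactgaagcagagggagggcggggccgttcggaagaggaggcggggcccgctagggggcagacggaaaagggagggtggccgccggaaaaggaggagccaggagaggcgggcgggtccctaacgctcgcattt
The match starts 230 bases before the annotated start. Of 17 homeostatic genes with a promoter in the tables, 8 held GAGGAA on either strand, against 31.3% of all 27025.

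Most of the 26 cells were the 20 with markers of border-associated macrophages. These came from all 6 mice, 1, 2 and 6 from CKp25 mice and 5, 2 and 4 from CK mice. They were chosen by at least 3 of 8 markers, one of which, the scavenger receptor Stab1, was found in 87.2% ± 5.48 of all cells and the other 7 in at most 6.68%. The summed level of the 8 markers was 34.99 to 219 FPKM in CKp25 mice and 100 to 258 FPKM in CK mice, against 29420 to 58560 and 39290 to 50200 FPKM for the 10 microglia markers. Genes outside the marker list are given here as a description, since cells of 1 mouse are not replicates. Apoe was found in 20 of 20 cells with a median of 16060 FPKM, against 48.6% and a median of 0 in the 502 cells without 3 markers of another type. Lyz2 (lysozyme) was found in 90% against 34.3%, Cd63 (a lysosomal tetraspanin) in 85.0% against 41.8% and Cd74 in 30% against 3.59%. Several homeostatic genes were found in fewer of these cells, Sparc in 60% against 99.6%, Golm1 in 65.0% against 95.2%, Gpr56 in 55.0% against 91.4%, Serpine2 in 45.0% against 74.7% and P2ry12 in 80.0% against 99.8%. Other homeostatic genes did not share this, Fcrls having a higher median (1571 against 1048 FPKM) and Entpd1 (95% against 93.8%), Rgs10 (95% against 91.8%) and Ltc4s (70% against 67.1%) being found in like shares of the 20 cells. The median of P2ry12 was 732 against 1951 FPKM, that of Selplg 194 against 905 and that of Cst3 14250 against 25620. Tmem119 and Csf1r were found in 100% of both. The 20 cells held a median of 2500 genes against 2072, and a median of 10 of the 10 microglia markers in both. Whether they are macrophages of the brain's borders, microglia with such genes or mixed wells was not tested.

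**Figure D4:**
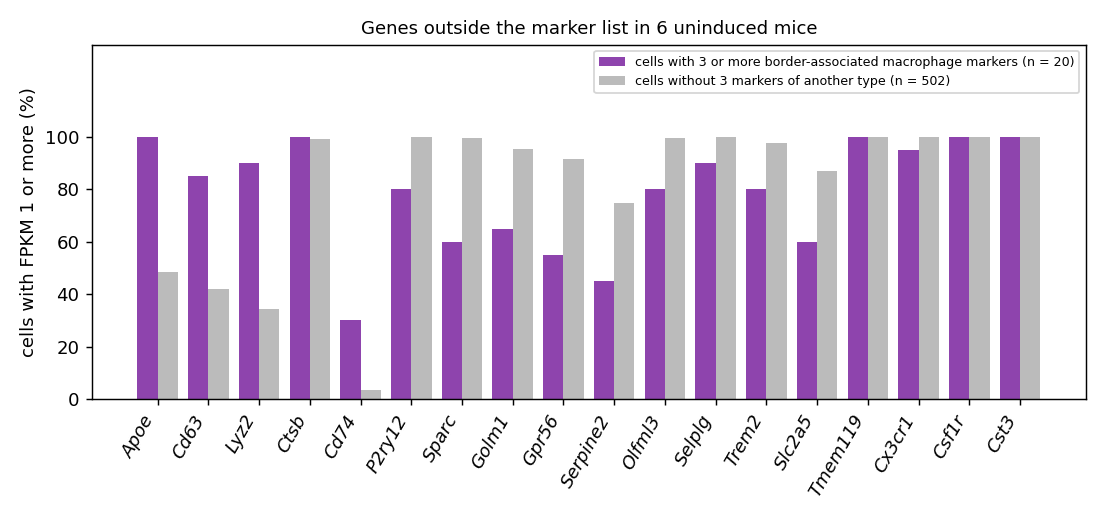
Percentage of cells at FPKM 1 or more for genes outside the marker list, in the 20 cells with at least 3 markers of border-associated macrophages (purple) and in the 502 cells without 3 markers of another type (grey), all from the 6 uninduced mice. Apoe, Cd63 and Lyz2 are found in 85.0% to 100% of the 20 cells, and Sparc in 60%.

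Other lists varied together less. The mean correlation was 0.0943 ± 0.0234 for ribosomal proteins, with 267 of 1081 pairs above 0 in all 6 mice (24.7%, against 1.92% of all pairs), 0.0714 ± 0.0445 for complement, 0.0587 for Fc receptors, 0.0558 for phagocytic genes and 0.0453 for the lysosome. Within complement, C1qa and C1qb correlated at 0.371 ± 0.128. Transcription factors (0.00754), respiratory chain genes (0.0124), glycolysis (0.0158), survival signalling (0.0175), purinergic genes (0.0181), MHC class I (0.0194), NF-kappaB (0.0200), innate receptors (0.0215) and the actin cytoskeleton (0.0345) stayed nearer to the mean of all pairs. In sparse values such small correlations are not a finding.

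**Figure D5:**
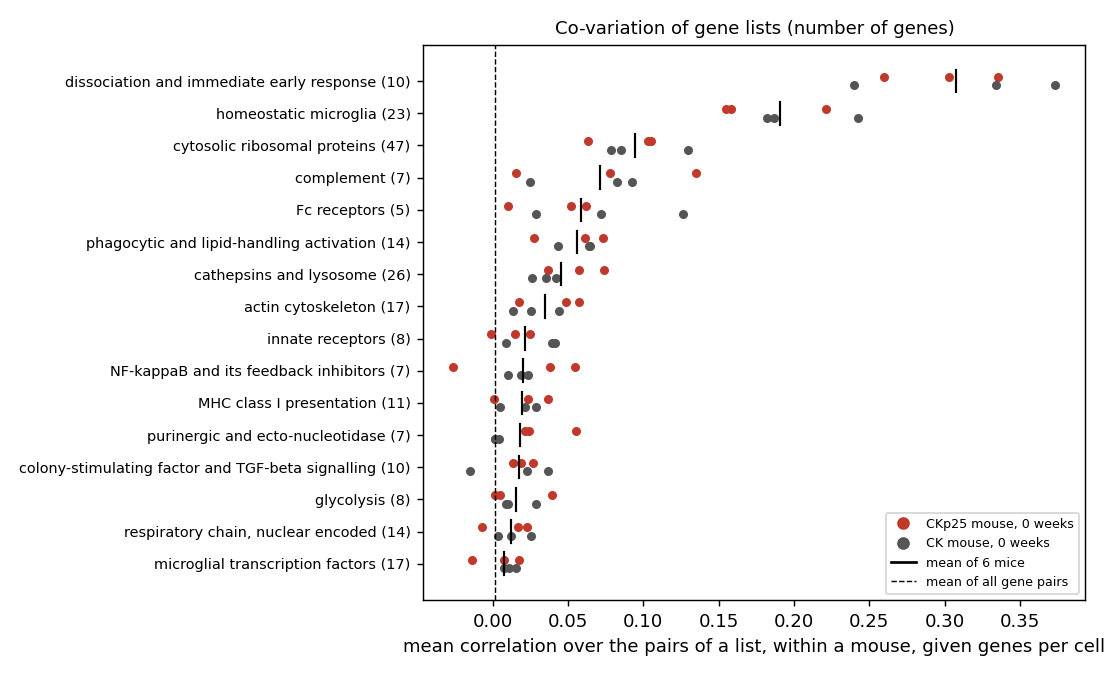
Mean within-mouse correlation over the pairs of each gene list, given genes per cell, in each of 3 CKp25 and 3 CK mice at 0 weeks (points), with the mean of 6 mice (bar) and the mean of all gene pairs (dashed line); the number of genes stands in brackets. Immediate early genes (0.308) and homeostatic genes (0.191) lie furthest to the right of the lists of more than 2 genes.

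When each list was reduced to 1 mean log2 level per cell, homeostatic and immediate early genes ran against each other within every mouse. The correlation given genes per cell was -0.249 ± 0.0424 and lay between -0.3245 and -0.1995. Without the regression on genes per cell it was -0.102, between -0.205 and 0.0863 in single mice, and without cells with markers of another type -0.209. Homeostatic and ribosomal protein levels gave -0.269 ± 0.103, but 0.0439 without the regression. Ribosomal protein levels went up with those of the actin cytoskeleton (0.337 ± 0.105) and the respiratory chain (0.294 ± 0.107), phagocytic with lysosomal ones (0.308 ± 0.105, without shared genes) and NF-kappaB with immediate early ones (0.261 ± 0.0969). Among the 5 single pairs below -0.2 in all 6 mice were Cst3 with Gas7 (-0.368), Kcnq1ot1 with Tmsb4x (-0.307), Ctss with Gas7 (-0.298) and Neat1 with Sparc (-0.251).

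The 2 genotypes were described together, although 3 mice of each cannot show them to be alike. By limma on mouse means of log2(FPKM + 1), with Benjamini-Hochberg adjustment, 0 of 9162 genes were higher and 0 lower in CKp25 than in CK mice (0.0% of those tested), with 82 higher and 25 lower at an unadjusted p under 0.05 and a median difference of 0.03. The 23 homeostatic genes had a median difference of -0.06. Among 16 chemokines and cytokines tested the median was 0.34 and 3, Il18, Il6 and Ccl3, were higher at an unadjusted p under 0.05. Cell-to-cell variation did not pass the test either, at 0 of 4797 genes in each direction (0.0%), with 51 higher and 47 lower at an unadjusted p under 0.05. P-values measure the spread between mice, which the labels number as separate animals.

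Set against CK mice of later weeks, the uninduced mice showed 0 of 9162 genes higher and 0 lower (0.0%), with a smallest adjusted p of 0.400. At an unadjusted p under 0.05, 55 were higher and 692 lower, around a median difference of -0.09. Cells of the uninduced mice also held fewer genes, with a median over mice of 2034 against 2364 and overlapping ranges, and with the number of genes per cell as a covariate the counts were 200 and 325. Among the listed genes the smallest p belonged to Zfp36, found in 60.01% ± 10.8 of cells in uninduced mice against 76.6% in later CK mice, with a log2 difference of -1.41 ± 0.347 (SE) and an adjusted p of 0.400. Actg1, gamma-actin, differed by -1.24 ± 0.314 (SE) and Pgk1, a glycolytic enzyme, by -0.98 ± 0.252 (SE), with an adjusted p of 0.400 each, and Ier3 by -1.001 ± 0.286 (SE, adjusted p = 0.439). Fos was found in 38.5% ± 8.57 of cells against 55.4%, with a log2 difference of -1.37 ± 0.448 (SE) that did not pass (adjusted p = 0.502). Lower at an unadjusted p under 0.05 were 7 of 26 immediate early genes and 14 of 47 ribosomal protein genes. So were 5 of 15 MHC class I genes and 6 of 16 chemokines and cytokines, against 692 of all 9162 genes. The list medians, in this order, were -0.40, -0.57, -0.45 and -0.205, against -0.09 over all genes. The part of the number of genes per cell in these list counts was not tested. The homeostatic median was -0.19, with Cst3 at -0.08, Cx3cr1 at -0.07 and P2ry12 at -0.19. Cell-to-cell variation did not pass in any of 4797 genes (0.0%, smallest adjusted p = 0.861), with 110 higher and 94 lower at an unadjusted p under 0.05. The co-variation of lists ran over like ranges, 0.240 to 0.374 in uninduced and 0.261 to 0.390 in later CK mice for immediate early genes, and 0.155 to 0.243 and 0.0900 to 0.297 for homeostatic genes.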

How the data were processed

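Single sorted wells were the samples, and the mouse was the replicate. The authors deposited 1 table of FPKM values per gene and well, made with Cufflinks 2.2 on build mm9 per the submitters' processing notes. The aligner's settings, the annotation and any filters are not given in the sources used here. The labels name 2208 wells and state 2183 libraries, 25 fewer, with a median of 251353 mapped reads per cell. The table holds no read counts, so the depth of each well is unknown. Full-length cDNA was amplified over 21 PCR cycles without molecular identifiers, per the labels' protocols, so FPKM values are not counts of molecules, and short and low transcripts can drop out by chance.

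A gene was called found at an FPKM of 1 or more. Per mouse, the mean FPKM, the percentage of cells, the mean and SD of log2(FPKM + 1), the excess SD over a lowess trend (fraction 0.2, statsmodels 0.14.6) and correlations over cells were computed in Python 3.11.15 (scipy 1.17.1, pandas 2.3.3, numpy 2.4.6), and figures were drawn with matplotlib 3.10.9. Pairs were regressed on log2 genes per cell within each mouse. Differences were tested with limma 3.58.1 (R 4.3.3, trend and robust) on mouse values of all 25 mice in 8 groups, for genes found in 10% or more of a mouse's cells, in 3 mice or more for levels and in every uninduced mouse for variation, with Benjamini-Hochberg adjustment and a threshold of 0.05. Fold changes on this scale understate the change of low genes. The test was tried on simulated data with known changes, in which each gene varied between mice independently of the others. Between genotypes it recovered 71.6% of levels changed by 1 on the log2 scale and 97% of those changed by 2. It also called 11 unchanged genes. Real mouse values share deviations across genes, so these shares cannot be taken as the recovery in the real data. Transcript lengths came from GENCODE M21 and promoters from RefSeq GRCm38.p6, both matched by symbol, and no coordinates of the authors' build were used. No doublet caller was run, and cells with at least 3 markers of another type were counted and left out in an alternative.

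The members and gene lists were chosen with earlier results of these data known. Named genes were the 15 of highest level, the 3 highest small RNA genes, the 25 of largest share of cells, the 20 most and 10 least variable, the partners of 6 anchor genes, the 10 with most variance between mice, and members of the lists. Some genes that these rules name are not reported here. The Bhlhe41 set, its classes of wells and the runs of T and A were added after values were seen. Mice of the same number in both genotypes deviated together from their group means (correlations of 0.185, 0.221 and 0.115, against -0.173 to 0.00646 between other numbers). The main tests did not use this pairing, and the mouse number entered as a block only in an alternative. Alternatives changed the pseudocount, gene and cell filters, scaling, covariate, the mice in the fit and the block.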

Additional observations from a re-analysis of the deposited data

Results flagged for a closer look

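Of 57 summary values examined over the 6 uninduced mice, 3 had a mouse that stood apart from the other 5 by more than Dixon's critical value for 6 samples. Chance flags about 1 in 20 groups.

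The share of the summed FPKM held by the 20 microglial transcription factors was 9.46% in CKp25 mouse 2, and the nearest mouse had 5.19%. Bhlhe41 is a member of that list, and its mean level in this mouse was 24140 FPKM, the highest of the 6. The mean within-mouse correlation of the same factors was -0.0137 in CKp25 mouse 2, and the nearest mouse had 0.00744.

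The share held by the MHC class II list was 0.596% in CK mouse 1, and the nearest mouse had 0.190%. In that mouse Cd74 averaged 567 FPKM and was found in 6.74% of cells, with 1 cell at 18340 FPKM. The cells with at least 3 border-macrophage markers numbered 5 in this mouse, against 1 to 6 in the others.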

How the results depend on the processing

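The counts of 0 genes past the threshold in all 4 limma comparisons held under most alternatives. The genotype comparison of levels gave 5 genes (2 higher, 3 lower) when genes found in 1% of the cells of 1 mouse were admitted, and 5 with no filter on genes. The comparison of levels with later CK mice gave 1 gene, higher, with each of these filters, and 0 to 1 when single mice were left out, the 1, lower, appearing without CK mouse 3 of 1 week. Its variation gave 1 gene with the SD itself in place of the excess. With the mouse number as a replicate block all 4 counts stayed at 0, and the block changed no call; the smallest adjusted p against later CK mice was then 0.105. At an unadjusted p under 0.05, quantile normalization gave 299 genes higher and 304 lower against later CK mice, against 55 and 692. Leaving out single mice gave 74 to 79 genes found in at least 95% of cells, kept 18 to 19 of the 20 most variable genes, and gave a mean over all pairs of 0.00146 to 0.00206. That mean was 0.0250 without regression on genes per cell and 0.00422 by Spearman. Homeostatic against ribosomal protein levels changed sign without the regression (0.0439), and the cause was not tested. Of the other alternatives, 628 values were counted as the same. For correlations this meant a move smaller than the spread between mice. For single genes set against later CK mice it meant the same sign and no new pass of the threshold. A further 47 moved by more than the spread, not all with their sign kept. Homeostatic against phagocytic levels, at -0.0676 ± 0.107, gave 0.131 without the regression. Read depth, which is unknown, limits every share of cells.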
